A study of Mus musculus with 29 samples.

Results

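Open chromatin was compared between rods and wild-type green cones of the adult mouse retina across all 110715 regions of 200 bp in the deposited ATAC-seq table, which is every region of that table. ATAC-seq measures how readily a transposase cuts into DNA, so that a high read count marks accessible chromatin. Rods were sorted once by GFP fluorescence from *Nrl*-eGFP mice (2 libraries) and green cones, the cones that express the middle wavelength opsin, were sorted once from *Opn1mw*-GFP mice (2 libraries), all at postnatal day 56. These 4 libraries are among the 29 samples of the series, and the labels mark them as re-analysed from existing data. Photoreceptors of *Nrl*-/- mice that also carried *Nrl*-eGFP (2 libraries) and 3 populations of bipolar cells (pan-BC, ON-BC and OFF-BC, 2 libraries each) stand in the same table, and the peaks of 2 further libraries of green cones that had been sorted a second time were used as a separate readout. The *Nrl*-/- photoreceptors and the double-sorted green cones were also taken at postnatal day 56. RNA-seq of rods and of *Nrl*-/- photoreceptors, 3 libraries each and from the same postnatal day, was read beside the regions. The bipolar cells of all 3 populations came from mice younger than postnatal day 56, and so younger than the photoreceptors. According to the paper, the lines were *Otx2*-GFP for pan-BC and *Otx2*-GFP crossed with *Grm6*-YFP for ON-BC and OFF-BC. The bipolar libraries also took part in the estimate of the spread used for the calls. The reporter lines differ between the compared groups, so that cell type and transgene cannot be told apart. The labels do not say whether replicate libraries came from separate mice, and the tests measure only the spread between these libraries.

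Rods and cones are the light-sensing cells of the retina. Rods serve dim light, and cones use cone opsins and serve daylight and colour, with each type running its own set of G protein, phosphodiesterase and channel subunits. NRL, with its target NR2E3, is required for the rod fate, and photoreceptors without NRL take on features of blue cones. Mouse rod nuclei are known for an inverted arrangement in which heterochromatin gathers in the centre of the nucleus.

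The libraries held 9665199 and 10890548 counted reads for rods and 7574103 and 4176776 for green cones. Pearson's correlation of log2 values across regions, which are not independent replicates, was 0.959 between the rod libraries and 0.903 between the green cone libraries, and lay between 0.774 and 0.823 between a rod and a green cone library. The share of reads in promoter regions, defined by a centre no more than 1000 bp before or 100 bp after a transcription start site (TSS), was 58.7% and 57.3% in rods and 51.7% and 50.6% in green cones. All values below are normalized counts, which are reads divided by 1 size factor per library, and differences are log2(rods) minus log2(green cones) after adding 1, which understates the difference of regions with few reads.

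Far more regions were more accessible in green cones than in rods. Of the 108448 regions tested, 11858 (10.9%) were called higher in green cones and 301 (0.278%) higher in rods, together 11.2%. A call means that limma's treat test found a difference of more than 2-fold with an adjusted p under 0.05. The regions higher in green cones had few reads in rods. Their median was 1.56 and 1.36 normalized counts in rods, against 25.4 and 29.6 in green cones, and 2726 of them had no read in either rod library. The regions higher in rods had a median of 120.7 and 126.7 in rods and 30.0 and 18.3 in green cones, and 17 of the 301 had no read in either green cone library. The spread was estimated from all 12 libraries of the table. With only the 4 rod and green cone libraries in the fit, limma called 0 regions (22307 at an unadjusted p under 0.05), and edgeR on the recovered reads of the same 4 libraries called 20486, of which 17218 were higher in green cones. The count higher in rods depended on single libraries and on scaling. It was 45 and 47 without rod replicate 1 or 2, 639 without green cone replicate 1, 70 without green cone replicate 2, 91 with scaling to total reads and 65 with size factors from promoters. Without green cone replicate 2 the count higher in green cones was 6640.

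**Figure D1:**
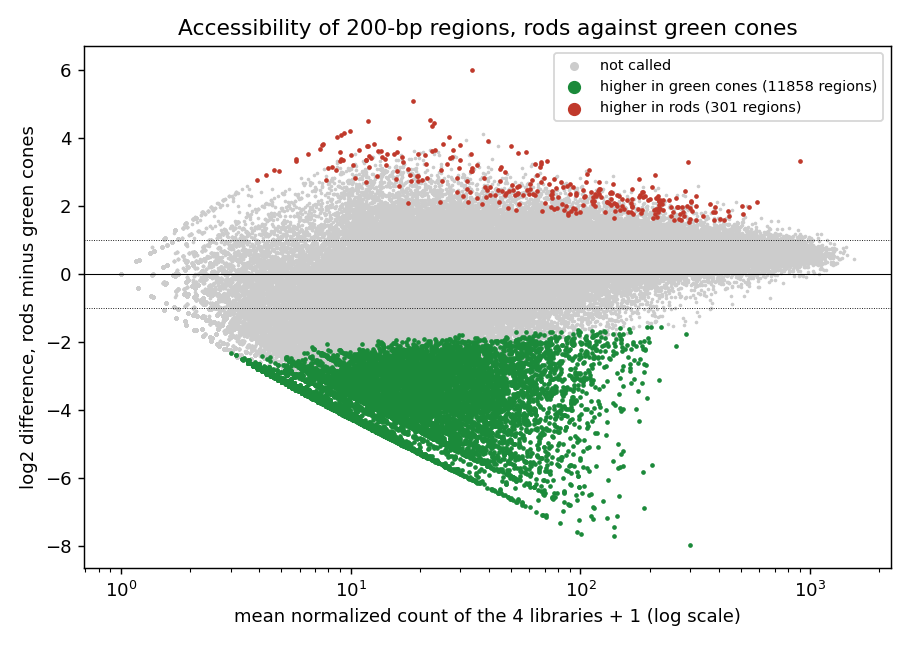
Each point is 1 of the 108448 tested regions, with the mean normalized count of the 4 libraries plus 1 on a log axis and the log2 difference of rods minus green cones on the other. The 11858 regions called higher in green cones lie mostly below 100 normalized counts, and the 301 called higher in rods spread over the whole range of levels. Dotted lines mark the tested log2 fold change of 1.

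Promoters and regions away from them had medians of opposite sign. Across all 16495 promoter regions tested the median difference was 0.39, towards rods, and across all 91953 TSS-distal regions it was -0.67, towards green cones. These medians move with the scaling. Scaling to total reads shifted the median of all regions by -0.29 and gave 0.04 at promoters and -0.90 at TSS-distal regions, and size factors from promoters shifted it by -0.28 and turned the promoter median to -0.03. Among the calls, 1010 promoter and 10848 TSS-distal regions were higher in green cones, and 35 promoter and 266 TSS-distal regions were higher in rods. By level, the regions with a mean under 5 normalized counts had a median difference of -1.01 and those over 100 had 0.64, and promoters made up 2.65% of the former and 58.1% of the latter. The TSS-distal regions higher in green cones lay a median of 44334 bp from the nearest TSS and those higher in rods 20290 bp, against 28620 bp for all TSS-distal regions tested.

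**Figure D2:**
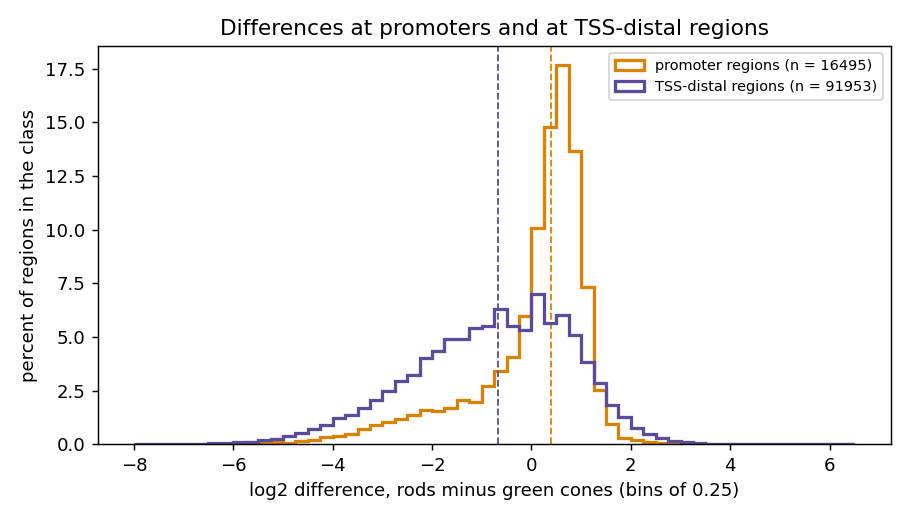
Percent of the regions of each class in bins of the log2 difference, rods minus green cones, for 16495 promoter and 91953 TSS-distal regions. Dashed lines mark the medians, 0.39 for promoter and -0.67 for TSS-distal regions.

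Genes of cone phototransduction had many called regions. Of the 83 tested regions assigned to the 11 genes of the cone cascade, 31 were called higher in green cones (37.3%, against 10.9% of all regions tested) and 0 higher in rods, with a median difference of -1.81. *Slc24a2*, the cone exchanger of sodium, calcium and potassium, had 12 of its 18 regions called. Its promoter region (chr4:87230351-87230551) had 0.779 and 1.36 normalized counts in rods and 127.6 and 142.2 in green cones (log2 difference -6.05, standard error 0.27, limma adjusted p = 6.96e-10). A region inside the gene, 6224 bp downstream of a TSS, had 0 and 2.71 in rods and 189.0 and 191.5 in green cones. *Cngb3*, a subunit of the cone cyclic nucleotide channel, had 3.12 and 0 at its promoter region in rods and 70.7 and 97.2 in green cones (-5.37, standard error 0.50, limma adjusted p = 4.69e-06). Both genes were nearly without reads in rods at these regions, and the ranges of the groups did not overlap.

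The 2 cone opsin genes were called as well. The promoter region of *Opn1sw*, the short wavelength opsin, had 10.9 and 6.10 normalized counts in rods and 121.4 and 99.99 in green cones (-3.60, standard error 0.44, limma adjusted p = 0.000291). That of *Opn1mw*, the middle wavelength opsin, had 1.56 and 0 in rods and 83.8 and 45.1 in green cones (-5.29, standard error 0.85, limma adjusted p = 0.00119). The green cones carried a transgene named for this gene, and its part in these reads was not tested. In *Nrl*-/- photoreceptors the *Opn1sw* region had 242.2 and 221.1, and the *Opn1mw* region 32.4 and 31.1. A region 3852 bp upstream of *Opn1mw* had 169.8 and 193.1 in rods against 103.0 and 101.4 in green cones and did not pass the test (0.82, standard error 0.40, limma adjusted p = 1).

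Some other promoters of the cone cascade also held reads in rods. The promoter region of *Cnga3* was not called but had no peak in either rod library. Of the 15 tested *Cnga3* regions, 5 were called higher in green cones. The promoter region of *Pde6h*, the inhibitory subunit of the cone phosphodiesterase, had 15.6 and 21.7 in rods and 114.5 and 138.0 in green cones and was called (-2.71, standard error 0.39, limma adjusted p = 0.00365). *Gnb3*, a G protein subunit of cones and ON bipolar cells, had 297.5 and 258.2 in rods and 275.1 and 247.9 in green cones, and these ranges overlapped. *Arr3*, cone arrestin, had 123.0 and 118.6 in rods and 169.0 and 173.2 in green cones, *Gnat2*, the cone transducin, 51.4 and 58.3 against 63.8 and 94.4, and *Pde6c*, the catalytic subunit of the cone phosphodiesterase, 60.7 and 63.7 against 110.6 and 123.9. At these 4 genes the promoter region nearest to a TSS did not pass the test. A second promoter region of *Gnat2*, 336 bp upstream of the TSS, had 20.2 and 11.5 in rods and 124.5 and 135.2 in green cones and was called (-3.0, standard error 0.34, limma adjusted p = 0.000269). The series has RNA-seq of rods, *Nrl*-/- photoreceptors and bipolar cells, but none of green cones. By RNA-seq *Gnat2* had 878.1 to 967.0 normalized counts in 3 rod libraries and 143488 to 184502 in 3 *Nrl*-/- libraries. *Arr3* had 809.2 to 1249 against 71844 to 94244.

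**Figure D3:**
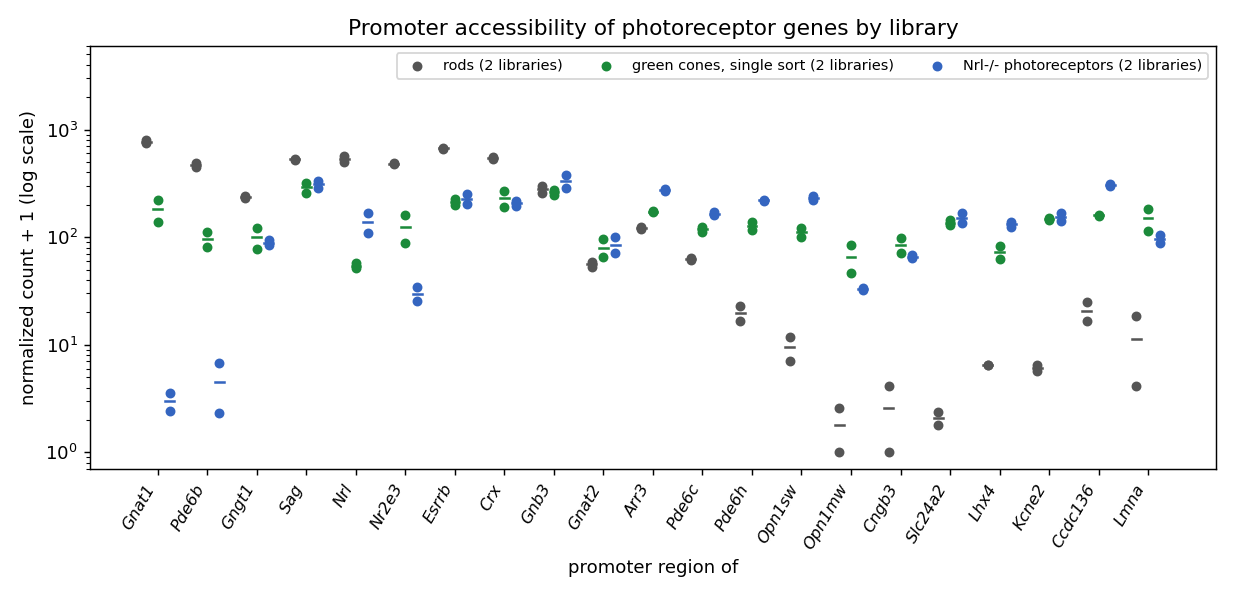
Normalized counts plus 1, on a log axis, at the promoter region nearest to a TSS of 21 genes in each library of rods, single-sorted green cones and *Nrl*-/- photoreceptors, with a bar at the mean of the 2 libraries of a group. *Slc24a2* runs from 0.779 and 1.36 in rods to 127.6 and 142.2 in green cones, whereas *Gnat1* falls from 792.0 and 748.1 in rods to 222.1 and 138.0 in green cones and 2.59 and 1.45 in *Nrl*-/- photoreceptors.

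The sequences of 9 called regions are shown as examples at photoreceptor genes described here. They were read from GRCm38 (mm10) on the plus strand, and bases inside annotated exons were left out. Capitals mark matches on either strand to the motifs described further on.
*Opn1sw* promoter, chr6:29380514-29380671, higher in green cones: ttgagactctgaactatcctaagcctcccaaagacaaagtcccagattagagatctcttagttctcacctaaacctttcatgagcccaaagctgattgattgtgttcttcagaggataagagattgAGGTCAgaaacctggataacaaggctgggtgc
*Opn1mw* promoter, chrX:74127289-74127465, higher in green cones: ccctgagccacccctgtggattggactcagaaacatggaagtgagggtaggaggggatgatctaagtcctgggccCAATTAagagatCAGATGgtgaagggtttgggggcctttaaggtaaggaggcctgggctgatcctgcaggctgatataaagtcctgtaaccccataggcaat
*Cngb3* intron, chr4:19281476-19281675, higher in green cones: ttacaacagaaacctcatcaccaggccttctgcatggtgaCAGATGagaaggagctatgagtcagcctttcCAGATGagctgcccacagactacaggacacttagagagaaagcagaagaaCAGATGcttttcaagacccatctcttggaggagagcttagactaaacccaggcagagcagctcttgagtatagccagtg
*Slc24a2* intron, chr4:87221639-87221838, higher in green cones: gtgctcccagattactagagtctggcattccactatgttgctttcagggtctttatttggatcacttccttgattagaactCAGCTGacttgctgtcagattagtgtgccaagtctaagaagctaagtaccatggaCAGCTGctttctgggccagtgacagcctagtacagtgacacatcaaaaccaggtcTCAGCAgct
*Lhx4*, in an intron of the neighbouring *Acbd6*, chr1:155655007-155655206, higher in green cones: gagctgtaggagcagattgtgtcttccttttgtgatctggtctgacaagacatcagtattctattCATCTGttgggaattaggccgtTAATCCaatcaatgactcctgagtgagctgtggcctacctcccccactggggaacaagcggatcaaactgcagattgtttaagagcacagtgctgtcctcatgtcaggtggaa
*Nrl* promoter, chr14:55524982-55525119, higher in rods: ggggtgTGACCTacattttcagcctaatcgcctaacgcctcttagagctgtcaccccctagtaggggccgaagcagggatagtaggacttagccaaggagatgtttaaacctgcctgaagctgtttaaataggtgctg
*Otx2*, intergenic, chr14:48608997-48609196, higher in rods: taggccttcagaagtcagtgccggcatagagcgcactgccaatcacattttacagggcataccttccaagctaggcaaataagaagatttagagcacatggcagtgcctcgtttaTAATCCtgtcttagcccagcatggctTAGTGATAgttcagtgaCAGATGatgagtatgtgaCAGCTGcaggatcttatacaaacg
*Prph2*, intergenic, chr17:46928061-46928260, higher in rods: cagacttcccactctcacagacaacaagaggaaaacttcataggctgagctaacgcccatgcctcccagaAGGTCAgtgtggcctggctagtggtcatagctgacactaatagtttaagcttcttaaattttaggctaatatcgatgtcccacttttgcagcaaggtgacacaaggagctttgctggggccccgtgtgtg
*Rorb* intron, chr19:18999066-18999265, higher in rods: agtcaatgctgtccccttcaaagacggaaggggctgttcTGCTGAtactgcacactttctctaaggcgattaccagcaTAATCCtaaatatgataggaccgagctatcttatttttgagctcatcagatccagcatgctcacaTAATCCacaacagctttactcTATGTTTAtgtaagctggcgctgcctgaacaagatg
The *Cngb3* sequence held 3 matches to CAGATG and the *Slc24a2* sequence 2 matches to CAGCTG, both E-boxes. The *Rorb* sequence held 2 matches to TAATCC, and the *Otx2* and *Lhx4* sequences 1 each.

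Regions of rod phototransduction genes had more reads in rods, but 1 of them passed the test. Of the 69 tested regions of the 11 genes of the rod cascade, 65 had a fitted difference above 0 (42326 of all 108448 regions did), the median difference was 1.57, and 1 was called higher in rods (1.45%, against 0.278% of all regions tested). That region lay in an intron of *Pde6a*, a catalytic subunit of the rod phosphodiesterase, with 28.8 and 16.3 normalized counts in rods and 1.54 and 0 in green cones. The promoter region of *Gnat1* (chr9:107679609-107679809), the rod transducin, had 792.0 and 748.1 in rods and 222.1 and 138.0 in green cones (2.13, standard error 0.54, limma adjusted p = 0.154), and *Pde6b*, the other catalytic subunit, 490.6 and 451.3 against 111.4 and 80.3 (2.30, standard error 0.56, limma adjusted p = 0.106). The rod and green cone libraries did not overlap at either of these promoters, but neither promoter passed the test. With 2 libraries in each group, separation alone is weak evidence of a difference.

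Promoters of the rod cascade also held reads in single-sorted green cones. Over the promoter regions nearest to a TSS, 1 for each of the 11 rod cascade genes, the mean of the green cone libraries was 20.4% to 54.7% of the rod mean (median 32.2%, against 75.5% over all promoter regions tested). Green cone replicate 1 was above replicate 2 at 11 of the 11, against 54.6% of all promoter regions tested. In *Nrl*-/- photoreceptors *Gnat1* had 2.59 and 1.45 normalized counts and *Pde6b* 1.30 and 5.78. Peaks of the rod cascade promoters were present in both rod libraries and both single-sorted green cone libraries at 11 of 11 regions, and in the double-sorted green cone libraries at 6 and 3 of 11. *Gnat1*, *Pde6b* and *Cnga1* had a peak in neither double-sorted library. At the 10 promoter regions of the cone cascade chosen in the same way the double-sorted libraries had peaks at 8 and 10, the single-sorted ones at 10 and 10, and rods at 4 and 5. The double-sorted libraries had 43221 and 29410 peaks in all and the single-sorted ones 50585 and 38506, and these ranges overlapped. The part of rods among the sorted green cones in the rod gene results was not tested.

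**Figure D4:**
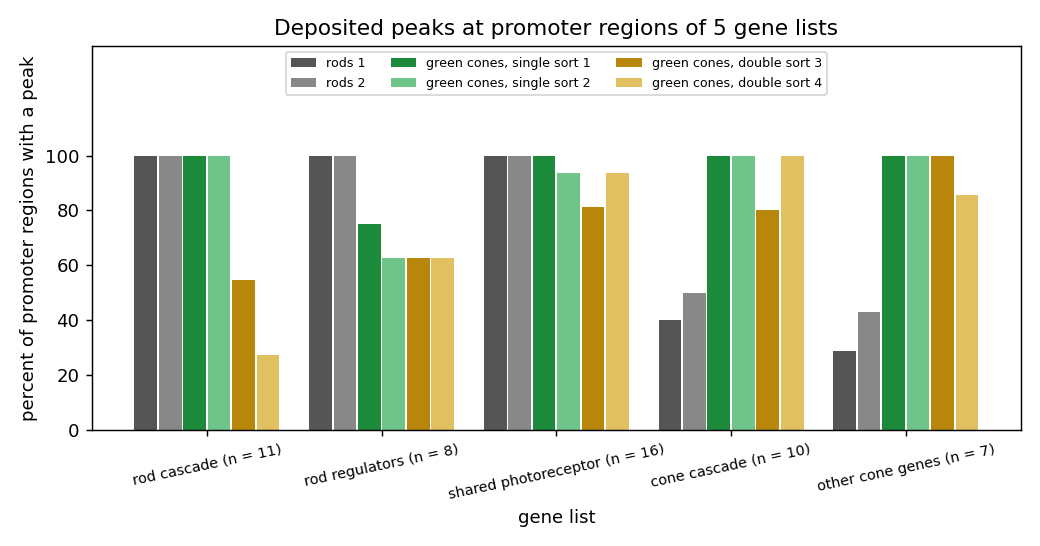
Percent of the promoter regions nearest to a TSS, 1 per gene, of 5 gene lists that overlap a deposited peak by at least 1 bp, with 1 bar for each library of rods, single-sorted and double-sorted green cones. The rod cascade has peaks at 11 of 11 promoter regions in the single-sorted libraries and at 6 and 3 of 11 in the double-sorted libraries.

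Among regulators of the rod fate, *Nrl* had the largest differences towards rods. It encodes the transcription factor required for rods, and 2 of its 6 regions were called higher in rods. The stronger, 39 bp upstream of a TSS, had 1645 and 1616 normalized counts in rods and 199.0 and 129.6 in green cones (3.34, standard error 0.36, limma adjusted p = 0.000106), and 648.9 and 493.6 in *Nrl*-/- photoreceptors. The other, 19 bp upstream of another TSS and the one in the plot of promoters by library, had 499.2 and 565.8 in rods and 56.1 and 50.7 in green cones (3.29, standard error 0.71, limma adjusted p = 0.0248). The rods and the *Nrl*-/- photoreceptors both carried *Nrl*-eGFP and the green cones did not, and the part of the transgene in these reads was not tested. *Nr2e3*, a nuclear receptor that represses cone genes in rods, had 489.1 and 475.0 at its promoter region in rods and 159.1 and 87.3 in green cones (2.02, standard error 0.50, limma adjusted p = 0.163). *Esrrb*, another nuclear receptor of rods, had 663.5 and 671.5 against 224.4 and 198.6 (1.66, standard error 0.23, limma adjusted p = 0.0509). The called one of its 26 regions, in an intron, had 145.6 and 151.8 in rods and 50.7 and 9.86 in green cones. Of all 105 tested regions of the 8 rod regulators, 3 were called higher in rods (2.86%, against 0.278% of all regions tested) and 2 higher in green cones (1.90%, against 10.9%).

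Regulators of cones had called regions at promoters and away from them. Of the 240 tested regions of 10 genes, 50 were higher in green cones (20.8%, against 10.9% of all regions tested) and 1 was higher in rods. *Lhx4*, a LIM homeodomain factor, had 13 of 20 regions called, among them its promoter region with 5.45 and 5.42 normalized counts in rods and 62.2 and 81.7 in green cones (-3.49, standard error 0.27, limma adjusted p = 3.32e-06). *Rxrg*, a retinoid receptor of cones, had 6 of 13 called, and its strongest region had 24.9 and 48.8 in rods and 185.9 and 214.1 in green cones (-2.48, standard error 0.25, limma adjusted p = 0.00031). *Thrb*, the thyroid hormone receptor needed for middle wavelength cones, had 4 of 55 regions called, all in introns, a smaller share than the 10.9% of all regions tested. One of these called regions had 4.67 and 1.36 in rods and 81.4 and 107.0 in green cones (-4.69, standard error 0.60, limma adjusted p = 0.000201). Of the 55 *Thrb* regions, 25 had a fitted difference above 0 (42326 of all 108448 regions did), up to 2.83 towards rods. *Rorb*, a nuclear receptor of both cell types, had 8 of 36 regions called higher in green cones and 1 called higher in rods, the intronic sequence shown above, with 403.4 and 351.0 in rods and 126.0 and 104.2 in green cones (1.71, standard error 0.19, limma adjusted p = 0.0106).

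Genes that both photoreceptor types use had mostly positive differences, towards rods. Over the 165 regions of 16 shared genes, 128 had a fitted difference above 0 (42326 of all 108448 did) and the median was 0.84 (-0.44 over all), with 3 regions called higher in rods (1.82%, against 0.278% of all) and 0 in green cones. The called regions belonged to *Prph2*, which shapes the outer segment disc, *Rcvrn*, a calcium sensor, and *Guca1b*, an activator of guanylate cyclase. The *Guca1b* region had 776.4 and 792.8 normalized counts in rods and 239.7 and 223.9 in green cones, and the *Rcvrn* region 407.3 and 378.8 against 112.2 and 88.7. The *Prph2* region had 615.2 and 556.3 normalized counts in rods and 156.8 and 125.3 in green cones (2.05, standard error 0.31, limma adjusted p = 0.0187). Of the shared regulators, the promoter region of *Crx*, the homeodomain factor of all photoreceptors, had 560.7 and 526.5 in rods and 268.2 and 188.7 in green cones (1.27, standard error 0.20, limma adjusted p = 0.381). A region assigned to *Otx2*, 53637 bp from its TSS, had 408.1 and 424.9 against 148.3 and 99.99 and was called (1.77, standard error 0.22, limma adjusted p = 0.0169). Over the 140 regions of 12 genes of the photoreceptor synapse, 8 were called higher in green cones (5.71%, against 10.9% of all regions tested) and 0 in rods.

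Of 48 regions of 7 further genes known from cones, 10 were called higher in green cones (20.8%, against 10.9% of all regions tested) and 0 in rods. The promoter regions of *Kcne2*, *Ccdc136* and *Otop3* were called, and those of *Fabp7*, *En2*, *Pygm* and *Elfn2* did not pass the test. *Kcne2*, a potassium channel subunit, had 4.67 and 5.42 normalized counts in rods and 149.1 and 143.6 in green cones (-4.61, standard error 0.26, limma adjusted p = 2.66e-08), and *Ccdc136* had 15.6 and 23.7 against 161.4 and 157.7 (-2.99, standard error 0.22, limma adjusted p = 2.98e-06). *Otop3*, a proton channel gene, had 4.67 and 6.78 against 33.0 and 33.8 (-2.37, standard error 0.43, limma adjusted p = 0.0259). In the list of nuclear architecture genes, 4 of 84 regions were called higher in green cones (4.76%, against 10.9% of all regions tested) and 0 in rods. A promoter region of *Lmna* (chr3:88503209-88503409), the gene of the A-type lamins, which mouse rods are known to lack, had 3.12 and 17.6 in rods and 113.7 and 183.1 in green cones (-4.05, standard error 0.45, limma adjusted p = 7.67e-05). The strongest *Lmna* region, 219 bp downstream of a TSS, had peaks in rods too. Their fold enrichment over background was 20.6 and 22.0, against 24.3 and 19.4 in single-sorted green cones. Of the 7 tested *Lmna* regions, 2 were called higher in green cones and 4 had a fitted difference above 0. *Lbr*, the lamin B receptor, had 1033 and 990.0 in rods and 714.6 and 760.5 in green cones and did not pass the test.

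Regions at markers of other retinal cells were also called higher in green cones. Of the 30 regions of 5 genes of horizontal cells 14 were called higher in green cones (46.7%), of 18 of ganglion cells 5 (27.8%), of 77 of Müller glia 15 (19.5%), of 29 of vascular cells and microglia 4 (13.8%), of 39 of amacrine cells 5 (12.8%) and of 90 of bipolar cells 10 (11.1%), against 10.9% of all regions, and 0 regions of these lists were called higher in rods. The promoter region of *Onecut1*, a factor of horizontal cells, had 21.8 and 8.81 normalized counts in rods, 122.9 and 177.4 in green cones and 138.6 and 133.0 in *Nrl*-/- photoreceptors. That of *Vim*, an intermediate filament of Müller glia, had no read in rods and 18.4 and 11.3 in green cones, at least 14.6-fold higher against 3 reads over both rod libraries. The 15 called regions of the Müller glia list were unevenly spread, with 9 at *Hes1* and 3 at *Vim*. *Rlbp1*, *Slc1a3*, *Apoe* and *Dkk3* of that list had 0 called, and single regions of *Rlbp1* and *Slc1a3* had fitted differences up to 1.37 and 2.26, towards rods. The summed level of the horizontal cell list was 239.9 and 191.8 in rods and 979.7 and 1059 in green cones, and that of the bipolar list 2469 and 2649 in rods and 1793 and 1729 in green cones. The defining bipolar gene *Vsx1* had at most 1.54 normalized counts at its strongest region in any of the 4 libraries. The part of other cell types in these results was not tested. In bulk samples, a difference in the cells that were sorted and a difference in accessibility per cell cannot be told apart.

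The called regions with the largest differences were ranked among those with a mean of at least 50 normalized counts in the higher group. Among the 12 with the largest difference towards green cones, a region at -157476 bp from the TSS of *Irx1*, a homeobox gene, had no read in rods and 185.2 and 211.2 normalized counts in green cones, at least 179-fold higher against 3 reads over both rod libraries. The promoter region of *Zfp608*, a zinc finger gene, had no read in rods and 182.9 and 198.6 in green cones, at least 173-fold higher. The 12 regions also held 2 next to each other upstream of *Col19a1* whose sequence is shared with the mitochondrial genome over all or nearly all of their 200 bases, in stretches of 25 bases or more. The first had 0.779 and 1.36 normalized counts in rods, 320.4 and 250.7 in green cones and 53.1 and 59.98 in *Nrl*-/- photoreceptors, and the second 4.67 and 0 in rods, 491.8 and 704.1 in green cones and 7.77 and 0 in *Nrl*-/- photoreceptors. Only 3 tested regions shared such a stretch, and the part of mitochondrial reads in them was not tested. Towards rods, 2 of the 12 were the *Nrl* regions given above, and the largest difference was that of a region 27785 bp from the predicted gene *Gm8439*, with 49.8 and 80.6 in rods and no read in green cones, at least 44.5-fold higher against 3 reads over both green cone libraries.

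The genes outside the lists with the most called regions are given as a description, beside the 10.9% of all regions called higher in green cones and with no test of clustering. *Zfp608* had 59 of its 73 tested regions called higher in green cones, over a span of 864.5 kb, and their sum over the tested regions was 90.3 and 97.6 normalized counts in rods and 2601 and 3049 in green cones. *Ptprg*, a receptor phosphatase, had 33 of 51, *Cdh13*, a cadherin, 32 of 48, *Ntm*, a cell adhesion molecule, 31 of 128, *Kcnma1*, a calcium-activated potassium channel, 28 of 31, and *Prickle2*, a planar polarity gene, 24 of 33. At *Kcnma1* 27 of the called regions lay in introns. Towards rods no gene outside the lists had more than 3 called regions. *Pak7*, a kinase gene, had 3 of 16, and its tested regions summed to 1258 and 1137 in rods and 318.9 and 225.3 in green cones.

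The libraries outside the contrast were compared at the called regions as a description. The regions were chosen by their rod and green cone values, so a comparison with those values is fixed in part by the choice. At the 11858 regions higher in green cones the median level in *Nrl*-/- photoreceptors was 16.8 and 17.3 normalized counts. At the 301 regions higher in rods the *Nrl*-/- median was 28.5 and 31.1, beside green cone medians of 30.0 and 18.3. Over all regions tested the medians of the *Nrl*-/- libraries were 15.5 and 15.2. Bipolar cells had medians of 30.2 to 36.4 at the regions higher in green cones and of 24.3 to 35.1 over all regions tested. The peaks of the double-sorted green cones, which took no part in the calls, overlapped 65.5% and 37.0% of the regions higher in green cones, 31.9% and 22.9% of those higher in rods and 40.9% and 28.5% of all regions tested. Peaks of the rod libraries overlapped 3.99% and 5.34% of the regions higher in green cones and 93.0% and 96.0% of those higher in rods. Over all regions tested the shares were 39.2% and 42.5%. The rod libraries also made the calls, so these peaks are no separate readout.

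RNA-seq was read beside the regions for rods and *Nrl*-/- photoreceptors. Of 14024 genes tested, 650 (4.63%) were called higher in rods and 1581 (11.3%) higher in *Nrl*-/- photoreceptors by the same limma test. Of 641 tested genes with a promoter region called higher in green cones, 331 (51.6%) were called higher in *Nrl*-/- photoreceptors and 7 (1.09%) higher in rods, and the median difference in RNA was -2.16. Of 27 genes with a promoter region called higher in rods, 12 were called higher in rods and 0 in *Nrl*-/- photoreceptors. For genes nearest to a TSS-distal region higher in green cones, 637 of 2566 (24.8%) were called higher in *Nrl*-/- photoreceptors, against 12.8% of genes with any TSS-distal region tested.

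Short sequence motifs differed in frequency between the called regions. The K50 homeodomain motif TAATCC, preferred by CRX and OTX2, was present on either strand in 43.2% of the TSS-distal regions higher in rods, 26.1% of those higher in green cones and 24.6% of all TSS-distal regions tested. TANNNATA, for MEF2 factors, was present in 37.2%, 17.6% and 20.1%, and the nuclear receptor core AGGTCA in 30.1%, 19.2% and 16.9%. TGCTGA, part of the element bound by MAF factors, NRL among them, was present in 22.9%, 19.5% and 19.1%. The E-box CAGATG went the other way, with 16.5% in regions higher in rods, 24.9% in those higher in green cones and 25.1% of all. The Q50 homeodomain motifs were rarer, with TAATTA in 8.27%, 7.61% and 5.82% and TAATTG in 6.02%, 9.91% and 7.60%. The shares higher in rods rest on 266 regions, and matches to different motifs may overlap. The median GC content was 48% in the TSS-distal regions higher in rods and 49% in the other classes.

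**Figure D5:**
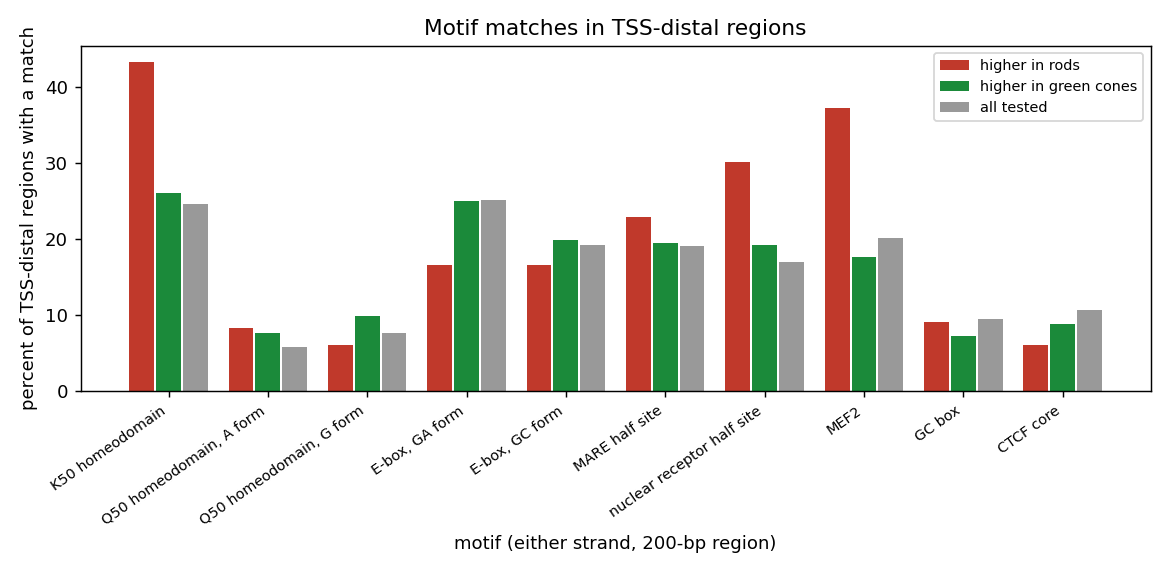
Percent of TSS-distal regions of 200 bp with at least 1 match to each motif on either strand, among 266 regions higher in rods, 10848 higher in green cones and all 91953 tested. The bars for regions higher in rods stand above the others for the K50 homeodomain (43.2%), MEF2 (37.2%) and nuclear receptor (30.1%) motifs.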

How the data were processed

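ATAC-seq was analysed in 2 rod and 2 single-sorted green cone libraries, with the other 8 libraries of the table in the fit. According to the submitters' processing notes and the study's methods, the authors aligned reads to mm10 (Bowtie2), filtered alignments (SAMtools), discarded duplicates (Picard) and long fragments, so as to keep nucleosome-free ones, and called peaks (MACS2), whose files come 1 per library. The notes give Bowtie2 2.2.5, SAMtools 1.3, Picard 2.19.0, MACS2 2.1.1, HOMER 4.8 and bedtools 2.24.0, and the methods give other versions of the first pair. The deposited signal values are read counts per 200-bp region that the authors divided by 1 size factor per library. All 1212862 values above 0 came out as whole reads (tolerance 0.01) once multiplied by that factor, which gave the counted reads, between 4176776 and 10890548 in the 4 libraries. For each peak the authors' files give the fold enrichment, a ratio over background, and the −log10 of the q-value.

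Regions were filtered with edgeR's filterByExpr on the recovered reads, which kept 108448 of 110715. limma was run on log2(value + 1) of all 12 libraries with a level for each population, at version 3.58.1 (R 4.3.3), and treat with a trended prior tested rods minus green cones for more than a 2-fold difference. The Benjamini-Hochberg adjustment ran over all regions, with a threshold of 0.05. RNA-seq genes were tested in the same way. The alternatives used edgeR 4.0.16 and DESeq2 1.42.0 on recovered reads (for RNA-seq, DESeq2 on rods and *Nrl*-/- photoreceptors alone). In counts simulated for rods against green cones over 108448 regions, limma called 5 of 100 regions changed 4-fold, 60 of 100 changed 16-fold and 0 unchanged ones, and edgeR 33, 100 and 0. Chi-square per region between replicates was 2.38 for rods and 2.55 for green cones, where counting alone gives about 1, and intervals or bounds on folds cover counting error only.

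Regions were assigned to the nearest TSS of 45756 RefSeq transcripts of GRCm38.p6. Named are, for each gene of fixed lists, the promoter region nearest to a TSS and the assigned region with the highest mean, the 12 called regions with the largest difference in each direction with a mean of at least 50 in the higher group, and the 8 genes outside the lists with the most called regions in each direction. Other called regions of list genes (of *Gnat2*, *Pde6a*, *Thrb*, *Rorb*, *Prph2*, *Rcvrn*, *Guca1b* and *Esrrb*) were named after their values were seen. Regions, lists and tests were chosen with earlier results of these data known.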

Additional observations from a re-analysis of the deposited data

How the results depend on the processing

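The numbers of called regions changed with the test and with the libraries in the fit. Over promoter and TSS-distal regions together, in every fit that called regions more were higher in green cones than in rods. The counts are given in the order all regions, higher in rods, higher in green cones, promoter and TSS-distal. The values reported are 12159, 301, 11858, 1045 and 11114. The same test by edgeR on recovered reads gave 21923, 1951, 19972, 1688 and 20235, and its F test with a fitted change of at least 2-fold 37810, 8565, 29245, 3960 and 33850. With DESeq2, 8948 were called and 202 of these were higher in rods. limma's test against no change gave 43268, 14089, 29179, 8751 and 34517. At promoters its direction was the reverse of that reported, with 6293 regions higher in rods and 2458 higher in green cones, against 35 and 1010. A filter at a mean of 20 normalized counts left 46650 regions to test and gave 4396, 203, 4193, 509 and 3887, and adding 5 before the logarithm gave 7064, 363, 6701, 628 and 6436. With only the 6 photoreceptor libraries in the fit the counts were 7453, 446, 7007, 627 and 6826. With only the 4 libraries limma called 0 in each class and edgeR, added after seeing the data, 20486, 3268, 17218, 1675 and 18811. Regions higher in rods were 91 with scaling to total reads and 65 with size factors from promoters. Leaving out 1 library gave 6710 to 9797 calls in all, 45 to 639 higher in rods, 6640 to 9750 higher in green cones, 659 to 919 promoter and 6051 to 8878 TSS-distal regions. There the lone library of a group is assumed to vary like the other groups. Without the regions that share mitochondrial sequence, also added after seeing the data, the count higher in green cones fell by 2 regions. The replicate block gave 11961 calls, of which 11745 were among those reported, and changed the call of none of the 48 named regions. The replicate numbers are not stated to pair the libraries, and the deviations of rod 1 and green cone 1 from their group means correlated at 0.02.

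The share of regions with peaks in both double-sorted libraries was 18.6% for those higher in rods and 34.3% for those higher in green cones. It was 33.4% for the latter with an overlap of at least 100 bp, and 11.6% and 24.8% with peaks of a −log10 q of at least 5. RNA-seq gave 2231 genes, and 1972 by DESeq2. Of the 48 named regions followed through 19 alternatives, 800 results kept direction and call, 54 lost the call, 30 of them with only 4 libraries in limma's fit, and 52 gained it. The *Gnb3* promoter region, at 0.09 in the report, was at -0.26 with scaling to total reads, at -0.34 with size factors from promoters and from -0.0162 to 0.19 with 1 library left out, the lowest without rod replicate 1. Depth limits regions with few reads. In 13499 of the tested regions both rod libraries and in 2600 both green cone libraries had no read, which is a limit of counting and does not show closed chromatin.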

Other observations

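Calls were spread unevenly over chromosomes. On the X chromosome 4.74% of 2467 tested regions were called, against 15.5% of 7630 on chromosome 1 and 8.35% of 8479 on chromosome 2, and the share of reads on the X was 1.45% to 1.47% in rods and 1.31% to 1.36% in green cones. These shares are given as values, with no test.

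At the 1010 promoter regions called higher in green cones the median level of pan-BC libraries was 73.6 and 95.8 normalized counts, above the green cone medians of 33.4 and 38.0. At the 35 promoter regions called higher in rods it was 70.4 and 76.4, against 252.3 and 261.6 in rods and 58.4 and 50.7 in green cones. The bipolar cells came from younger mice than the photoreceptors, and age, reporter line and cell type cannot be told apart here.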
